A study of Mus musculus with 18 samples.

Results

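The regions described here are H3K9me3 peaks at olfactory receptor genes of mouse embryonic stem cells. Peaks of 6 deposited lists on chr1 to chr19 without chr2 were merged where they shared a base, and a merged region was kept where it overlapped a transcript of a gene named Olfr followed by a number, or the 5 kb on either side of it. This rule kept 864 of 145014 merged regions. The receptor set held 826 genes with 947 transcripts on 15 of the 18 chromosomes used, and 12 of the genes carry a pseudogene suffix in their name.

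The cells were mESCs of the ES-E14TG2a line that carry a tetO-eGFP reporter, in 3 genotypes. These were wild-type, a Uhrf1 KO and a Dhx9 KO. H3K9me3 ChIP-seq peak lists were available for 2 libraries of each genotype, labelled replicate 1 and replicate 2 (n = 2 per group throughout). The labels name the same line for all 3 genotypes, but how the Dhx9 KO cells were made is not given in the sources used here. UHRF1 is a ubiquitin ligase that guides the maintenance DNA methyltransferase to newly replicated DNA, and DHX9 is a helicase that unwinds RNA and DNA. The study made more than 1 Uhrf1 KO clone, the clone behind each library is not given in the labels, and a peak list does not show whether the targeted gene is deleted. Samples labelled as input, before establishment, established before maintenance or maintenance have no peak list and were not analysed here.

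Olfactory receptors are G-protein-coupled receptors that detect odorants in the sensory neurons of the nose. They form the largest gene family of the mouse and lie in dense clusters, and a mature olfactory neuron expresses a single allele of a single receptor while the others are held silent under H3K9me3. Embryonic stem cells are not olfactory neurons. The coding sequence of a receptor typically lies in a single exon, so a peak over that exon covers the whole protein-coding part of the gene. Peak lists hold no expression, so they cannot check the cell type. Of 6 stem cell genes looked at, 3, Pou5f1, Sox2 and Zfp42, had no merged region within 5 kb in any library. Nanog had no peak over its transcript start in any library either, and neither did Klf4. Esrrb, an orphan nuclear receptor, had a peak over its start in all 6, as did 3.95% of all genes. Per library, 6.56% to 22.9% of all genes had a peak over a start, so the lack of one is common.

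The sequences under a few of these peaks are shown to set apart the kinds of region that the results turn on. Each is the middle 200 bases of the longest stretch called by every library that has the region, read on the plus strand of mm10, with CpG dinucleotides in capitals because CpG is the site of DNA methylation. Among members of 2 kb or longer, the highest wild-type enrichment was at Olfr497 (chr7:108428901-108429100) and Olfr401 (chr11:74125101-74125300), and neither stretch holds coding bases.

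Olfr497: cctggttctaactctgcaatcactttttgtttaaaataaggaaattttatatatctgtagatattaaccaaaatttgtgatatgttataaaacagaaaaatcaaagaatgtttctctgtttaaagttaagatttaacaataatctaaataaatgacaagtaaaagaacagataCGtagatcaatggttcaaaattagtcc
Olfr401: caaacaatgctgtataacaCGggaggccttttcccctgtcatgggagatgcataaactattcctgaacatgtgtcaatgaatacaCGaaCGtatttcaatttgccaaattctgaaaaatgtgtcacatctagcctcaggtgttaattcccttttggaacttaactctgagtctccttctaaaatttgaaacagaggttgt

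Peaks that both wild-type libraries had and both Uhrf1 KO libraries lacked often lay over a coding exon, as at Olfr410 (chr11:74334601-74334800) and Olfr655 (chr7:104596601-104596800). Olfr684 (chr7:105157201-105157400) had a peak in wild-type libraries alone, and Olfr239 (chr17:33199401-33199600) in Dhx9 KO libraries alone. All 200 bases of these 4 stretches are coding. Olfr410 and Olfr655 were picked among lost members over a coding exon, so there the choice favours coding bases.

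Olfr410: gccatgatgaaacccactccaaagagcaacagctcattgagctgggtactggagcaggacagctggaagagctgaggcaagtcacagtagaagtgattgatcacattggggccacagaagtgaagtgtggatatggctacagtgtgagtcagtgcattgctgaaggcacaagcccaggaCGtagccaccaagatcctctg
Olfr655: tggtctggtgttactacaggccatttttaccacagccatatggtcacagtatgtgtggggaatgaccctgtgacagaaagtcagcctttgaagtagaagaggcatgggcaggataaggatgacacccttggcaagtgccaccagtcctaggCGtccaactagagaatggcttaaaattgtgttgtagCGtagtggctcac
Olfr684: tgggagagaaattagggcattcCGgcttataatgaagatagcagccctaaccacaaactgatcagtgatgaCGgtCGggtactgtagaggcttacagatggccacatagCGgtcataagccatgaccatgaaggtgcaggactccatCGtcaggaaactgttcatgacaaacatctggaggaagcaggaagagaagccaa
Olfr239: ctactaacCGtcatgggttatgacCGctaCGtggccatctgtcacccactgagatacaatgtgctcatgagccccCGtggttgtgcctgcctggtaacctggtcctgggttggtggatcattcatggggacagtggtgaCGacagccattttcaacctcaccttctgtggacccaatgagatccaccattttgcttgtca

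The stretch at Olfr497 has a GC content of 25% with 1 CpG, and the one at Olfr401 has 39% with 3 CpGs and 91% repeat-masked bases. The coding stretches had a GC content of 52% at Olfr410, 49% at Olfr655, 48.5% at Olfr684 and 53% at Olfr239, with 1, 2, 5 and 5 CpGs. The repeat-masked share was 7% at Olfr410, 0% at Olfr655 and at Olfr239, and 26.5% at Olfr684.

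Receptor genes resemble one another, which limits how surely a 150-base read can be placed. Of 820 receptors with a coding sequence, 183 (22.3%) shared at least 1 stretch of 150 bases with another receptor's coding sequence, and 92 shared over 10% of theirs. The coding sequences of Olfr497, Olfr401, Olfr410 and Olfr655 shared none, whereas Olfr684 shared 12.45% and Olfr239 24.4%. Only coding sequences were compared, so reads in flanks, introns and repeats were not checked. That includes the stretches shown at Olfr497 and Olfr401. Of the receptors named further on, Olfr725 shared 12.3%, Olfr724 35.7% and Olfr687 65.2%. Values at receptors that share sequence are uncertain, since a read can come from either copy.

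Libraries differed in how much was called. Across the chromosomes used, the peaks numbered 64113 in Uhrf1 KO replicate 1 and 85315 in Uhrf1 KO replicate 2, against 106415 to 115655 in the wild-type and Dhx9 KO libraries. Uhrf1 KO replicate 1 stood apart, with 5856789 ChIP reads in peaks against 15627480 to 19130406 in the other 5. The lists also differ in their background. Where libraries had peaks with identical ends, the background read count was the same for 100% of them among the wild-type and Dhx9 KO libraries and between the Uhrf1 KO libraries, but for 1.88% to 3.75% between a Uhrf1 KO library and any other. Genotype and background library therefore cannot be told apart in the Uhrf1 KO comparison.

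Receptor transcripts with their 5 kb flanks were a lightly covered part of the genome in wild-type cells. The joined windows span 9.69 Mb, and 10.6% of their bases lay in a peak of wild-type replicate 1 and 10.4% in replicate 2, against 17.3% and 16.7% of all known bases on the same chromosomes. The ratio of these shares was 0.611 and 0.622, with a mean of 0.616. The mean was 0.894 without flanks and 0.743 with a flank of 20 kb. It was 0.918 with peaks of a log2 fold of at least 1 and 0.864 with an equal number of peaks per library. How lightly the windows were covered thus depended on the flank and on the peaks admitted. The windows are poorer in GC and CpG than the genome, with 38.6% GC against 41.9% and 0.515 CpG per 100 bases against 0.851, and hold a similar share of repeat-masked bases, 34.2% against 33.6%. Member regions were shorter than all regions, with a median of 2500 bp against 3200 bp. Enrichment over background was higher, with a median log2 fold of 1.45 and 1.48 in the wild-type libraries against 1.10 and 1.12 over all regions.

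Coverage of the windows differed between the genotypes in opposite directions. In the Uhrf1 KO libraries 6.86% and 9.14% of the window bases lay in a peak, both below the wild-type libraries. In the Dhx9 KO libraries the shares were 12.6% and 13.7%, both above. The mean difference from wild-type was -2.48 percentage points for Uhrf1 KO and 2.66 for Dhx9 KO, each with p = 0.33 by the two-sided exact permutation test, which is the smallest p that 2 libraries against 2 allow. Over the genome the covered share was 8.48% and 14.2% in the Uhrf1 KO libraries and 17.1% and 16.6% in the Dhx9 KO libraries. The median log2 fold of called members was lower in Dhx9 KO, at 1.17 and 1.22, than the 1.45 and 1.48 of wild-type. At members called in all 6 libraries it was 1.438 and 1.503 against 1.810 and 1.807. Over all regions the Dhx9 KO medians were also lower, at 0.979 and 1.07 against 1.10 and 1.12. In Uhrf1 KO, with its other background, the member medians were 1.71 and 1.62. In the receptor windows Dhx9 KO thus had wider calling and lower enrichment. Over the genome its lower enrichment came with a similar covered share, at 17.1% and 16.6% against 17.3% and 16.7% in wild-type. A link between calling and enrichment was not tested.

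**Figure D1:**
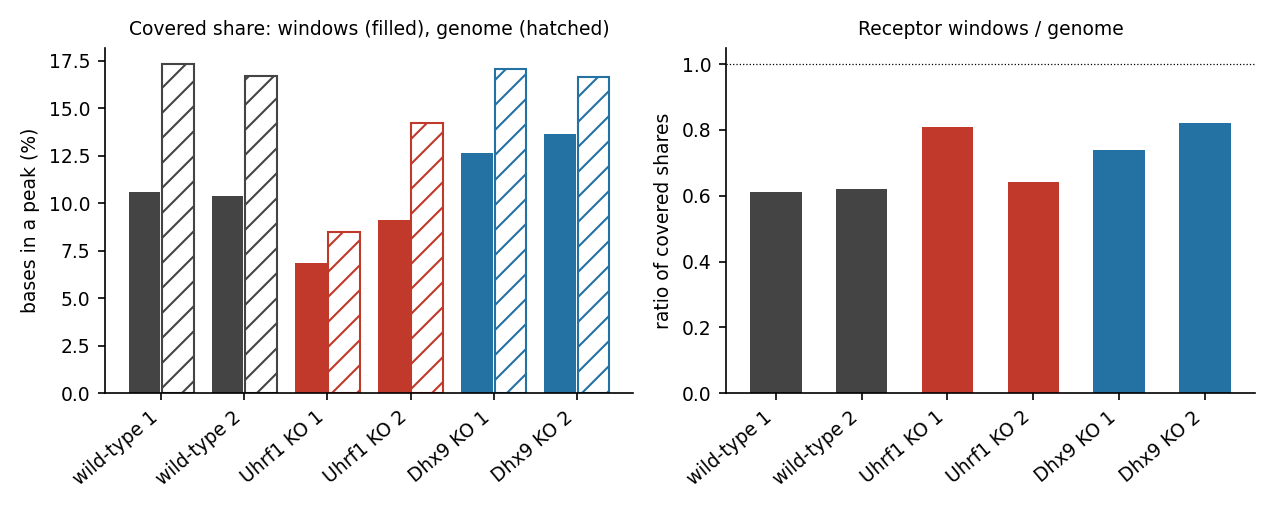
Left, percent of bases in a peak for receptor windows (filled bars) and for all known bases of the chromosomes used (hatched bars), by library; right, the ratio of the 2 shares, with a dotted line at 1. In every library the windows were covered less than the genome, and the ratio ran from 0.611 to 0.820.

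Relative to the genome, the ratio was 0.809 and 0.642 in the Uhrf1 KO libraries and 0.739 and 0.820 in the Dhx9 KO libraries, so every knockout library lay above both wild-type libraries. The mean difference was 0.109 for Uhrf1 KO and 0.164 for Dhx9 KO, each again with an exact permutation p of 0.33. The direction held for Dhx9 KO under every alternative tried. For Uhrf1 KO it turned with windows without flanks (-0.0484), with peaks of a log2 fold of at least 1 (-0.0976) and with an equal number of peaks per library (-0.0929). Without Uhrf1 KO replicate 1 the difference was 0.0257.

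The members divided by where they lay. A coding exon of a receptor was overlapped by 350 members (40.5%), an intron by 42, an untranslated exon by 19, and 453 (52.4%) lay only in the flanks. A receptor's transcript start was overlapped by 264 members, and 45 overlapped a transcript of another gene. Of the 826 receptors, 578 (70.0%) had a member region within reach and 248 had none.

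Most members were not called in every library. All 6 libraries had a peak at 210 members (24.3%, against 22.5% of all regions), and 1 library alone had a peak at 205 (23.7%, against 28.6%). Members called in all 6 had a median length of 5900 bp and a median repeat-masked share of 56.8%, against 6600 bp and 35.8% for all regions called in all 6. Members called in 1 library had a median of 1400 bp and 31.9%. The persistent regions at receptors were thus richer in repeats than persistent regions as a whole, as medians, with no test made.

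The member that led in wild-type enrichment among those of 2 kb or longer was at Olfr497, a region of 7400 bp at chr7:108423201-108430600. Its log2 fold was 5.93 and 5.82 in the wild-type libraries, 2.97 and 3.49 in Uhrf1 KO and 4.76 and 4.94 in Dhx9 KO, where the log2 fold of a region is that of its highest peak over background. The region at Olfr401 (chr11:74109001-74130400, 21400 bp) had 5.80 and 5.61 in wild-type, 2.35 and 4.02 in Uhrf1 KO and 2.18 and 4.96 in Dhx9 KO. In both regions the wild-type libraries lay above all 4 knockout libraries. Choosing the regions by their wild-type fold favours that order.

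The ChIP reads in called peaks did not follow the same order. At Olfr497 they numbered 173 and 158 in wild-type, 122 and 351 in Uhrf1 KO and 119 and 235 in Dhx9 KO. Per 1000000 reads in the peaks of the library these were 9.04 and 8.84, 20.8 and 22.5, and 6.50 and 12.4. At Olfr401 the values on this scale were 46.2 and 46.8 in wild-type, 106 and 73.3 in Uhrf1 KO and 43.5 and 69.6 in Dhx9 KO. On this scale, whose total depends on how much was called, both Uhrf1 KO libraries lay above wild-type in both regions and the Dhx9 KO libraries lay on either side. The next members by this rule lay beside Olfr926, with wild-type log2 folds of 3.18 and 3.10, at Olfr725, with 3.16 and 3.09, and beside Olfr915, with 3.45 and 2.92.

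The longest member spanned 45200 bp at Olfr520 (chr7:99700601-99745800) and reached into Slco2b1, an organic anion transporter gene, and Gm34280. Its log2 folds of 1.31 and 1.40 in wild-type were far below those at Olfr497, and it was 19.5% repeat-masked. The others were at Olfr525 and Olfr527 (26600 bp), Olfr522 and Olfr523 (25000 bp), Olfr503 and Olfr504 (23800 bp), and Olfr915 (21800 bp). The last 2 were 74.9% and 78.5% repeat-masked.

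Transcript starts of receptors were in a peak less often than those of all genes in 5 of the 6 libraries, with no test made. A gene counts if any of its transcript starts is in a peak. The number of transcripts per gene was not matched between receptors and all genes. A peak lay over the start of 151 and 143 of 826 receptors in wild-type (18.3% and 17.3%), of 48 and 114 in Uhrf1 KO (5.81% and 13.8%) and of 171 and 164 in Dhx9 KO (20.7% and 19.9%). Over all genes the shares were 22.9% and 21.8%, 6.56% and 15.8%, and 21.8% and 17.4%. For 557 of the 820 receptors with a coding sequence the annotated transcript begins at the first coding base, so these starts mark the coding exon and not a promoter.

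The coding sequence itself was covered over at least 50% of its length in 230 and 226 receptors in wild-type, 74 and 152 in Uhrf1 KO and 234 and 233 in Dhx9 KO. Both Uhrf1 KO libraries lay below the wild-type libraries, and replicate 1 lay much lower than replicate 2. Of the 111 receptors whose start lay in a peak of both wild-type libraries, 26 had none in either Uhrf1 KO library (23.4%, against 35.7% of all genes with such starts) and 7 none in either Dhx9 KO library (6.31%, against 12.3%). The start lay in a peak of all 6 libraries for 19 receptors (2.3%, against 3.95% of all genes), led by Olfr149, Olfr401, Olfr1388, Olfr514 and Olfr533, whose lower wild-type log2 folds at the start were 2.67, 2.19, 2.07, 1.57 and 1.501. It lay in a peak of no library for 562.

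The receptor genes form 36 clusters and 8 single genes when genes within 1 Mb of the next are joined, and clusters differed widely. In the 26 clusters of 5 or more genes, which hold 792 receptors, the mean wild-type covered share ran from 0.622% to 61.9% with a median of 7.22%. It was below that of the rest of the chromosome in 18 of the 26. The highest was a cluster of 8 genes on chr1 (chr1:92479681-92621001), with 62.0% and 61.8% in wild-type, 15.1% and 46.0% in Uhrf1 KO and 63.3% and 59.6% in Dhx9 KO. The lowest was a cluster of 15 genes on chr7 (chr7:86268730-86695384), with 0.905% and 0.339% in wild-type. The 5 clusters with the highest wild-type means had 5 to 13 genes. The 5 clusters with the most genes had 4.59% to 7.68% of their window bases in a peak of a wild-type library.

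**Figure D2:**
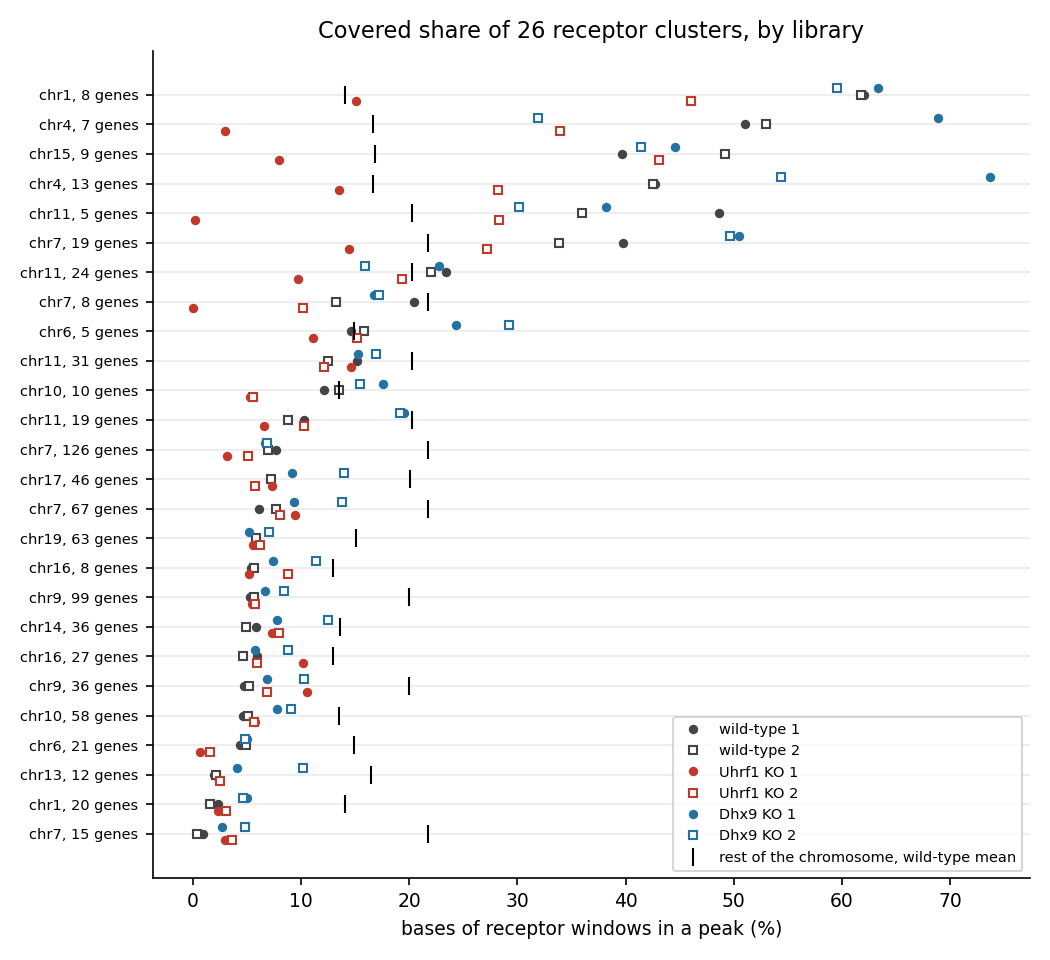
Percent of receptor window bases in a peak for the 26 clusters of 5 or more genes, ordered by the wild-type mean; circles are replicate 1, squares replicate 2, and the vertical tick is the wild-type mean of the rest of that chromosome. Clusters range from 0.622% to 61.9% in wild-type, and 18 of 26 lie below their chromosome.

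The largest cluster holds the class I receptors, the family shared with fish, at chr7:102476773-105369317, with 126 genes around the beta-globin genes. It had 109 members with a median length of 1600 bp, against 2600 bp for the other members. Its covered share was 7.64% and 6.89% in wild-type, 3.18% and 5.06% in Uhrf1 KO and 6.65% and 6.89% in Dhx9 KO. The other receptor windows had 11.09% and 10.99% in wild-type, 7.50% and 9.85% in Uhrf1 KO and 13.7% and 14.8% in Dhx9 KO. The class I cluster was the only 1 of the 26 in which both Dhx9 KO libraries lay below both wild-type libraries, and there Dhx9 KO replicate 2, at 6.886%, lay just under wild-type replicate 2, at 6.890%. Of its 56 members with a peak in both wild-type libraries, 19 had none in either Uhrf1 KO library (33.9%, against 22.9% of the other members and 23.4% of all regions). Neither Dhx9 KO library had a peak at 5 (8.93%, against 4.07% and 6.77%).

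The next largest clusters had 99 genes on chr9 (chr9:37711348-40188094), 67 on chr7 (chr7:106677534-108894405), 63 on chr19 (chr19:11828077-13919972) and 58 on chr10 (chr10:128989914-130211128). The cluster of 99 had 5.31% and 5.60% in wild-type, 5.46% and 5.74% in Uhrf1 KO and 6.64% and 8.40% in Dhx9 KO. The cluster of 67 had 6.11% and 7.68% in wild-type, 9.45% and 8.05% in Uhrf1 KO and 9.33% and 13.8% in Dhx9 KO. In the latter cluster all 4 knockout libraries lay above wild-type.

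The cluster of 58 showed the same order, with 4.59% and 5.13% in wild-type, 5.69% and 5.63% in Uhrf1 KO and 7.79% and 9.03% in Dhx9 KO. In the cluster of 63 the groups overlapped, with 5.84% and 5.85% in wild-type, 5.55% and 6.19% in Uhrf1 KO and 5.17% and 7.07% in Dhx9 KO. Over the 26 clusters, both Dhx9 KO libraries lay above both wild-type libraries in 16, below in 1 and overlapped in 9. Both Uhrf1 KO libraries lay above in 6, below in 10 and overlapped in 10.

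Which peaks were called in wild-type and not in a knockout was counted next. A region is lost here if both wild-type libraries have a peak in it and neither knockout library does, and gained in the reverse case. A missing peak is not a missing mark, because reads outside called peaks are not in the lists. In Uhrf1 KO 109 of 449 members were lost (24.3%, against 23.4% of all regions with a peak in both wild-type libraries) and 23 of 282 were gained (8.16%, against 8.02%). In Dhx9 KO 21 of 449 were lost (4.68%, against 6.77%) and 36 of 446 were gained (8.07%, against 8.73%). At these settings the shares of members were close to those of all regions. Among peaks with a log2 fold of at least 1 they were further apart in Uhrf1 KO, with 30.1% of members and 21.9% of all regions lost and 12.2% and 17.0% gained. With an equal number of peaks per library the Uhrf1 KO shares were 24.1% against 18.0% lost and 10.2% against 17.3% gained, and at a false discovery rate of 1e-10 they were 31.1% against 24.4% lost and 7.98% against 11.96% gained. The comparisons share the wild-type libraries, and 17 members were lost in both.

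These counts moved with the libraries used, and the shares over all regions moved with them. Without Uhrf1 KO replicate 1, 121 members were lost in Uhrf1 KO (26.9%, against 25.3% of all regions) and 45 gained (10.6%, against 13.2%). Without replicate 2, 205 were lost (45.7%, against 46.0%) and 70 gained (20.0%, against 19.5%). In Dhx9 KO 57 members were lost without replicate 1 (12.7%, against 16.9%) and 120 gained (20.3%, against 21.5%). Without replicate 2, 51 were lost (11.4%, against 15.0%) and 102 gained (17.3%, against 21.1%).

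Leaving out wild-type replicate 1 gave 172 lost in Uhrf1 KO (31.4%, against 32.2%) and, in Dhx9 KO, 57 lost (10.4%, against 14.2%) and 65 gained (14.6%, against 14.3%). Leaving out wild-type replicate 2 gave 174 lost (32.3%, against 31.7%) and 39 gained (13.8%, against 13.1%) in Uhrf1 KO. In Dhx9 KO it gave 51 lost (9.46%, against 13.2%) and 55 gained (12.3%, against 14.6%).

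The members lost in Uhrf1 KO were short and poor in repeats. Their median length was 1800 bp, against 5600 bp for members called in all 4 libraries compared, and their median repeat-masked share was 17.6% against 56.3%. Over all regions the medians were 3800 bp and 6200 bp, with 21.4% and 35.9% repeat-masked. Of members at most 50% repeat-masked 32.5% were lost (91 of 280), and of those over 50% repeat-masked 10.7% (18 of 169). Over all regions the shares were 27.4% and 10.4%. The 21 members lost in Dhx9 KO were shorter still, with a median of 1000 bp.

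**Figure D3:**
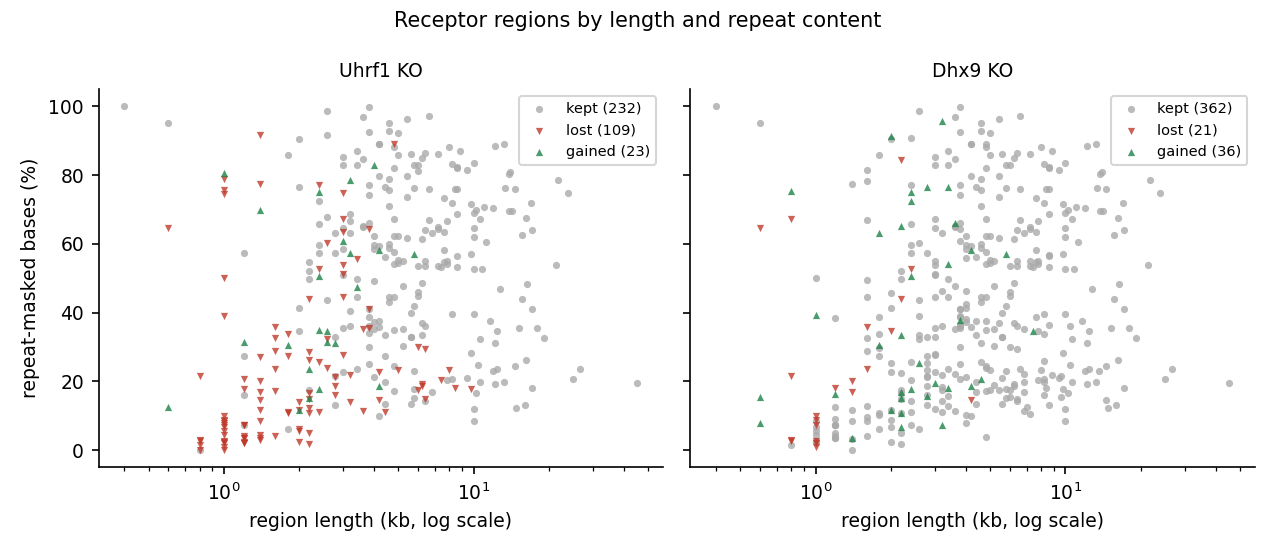
Each point is a member region, by merged length (log scale) and percent of repeat-masked bases, for Uhrf1 KO (left) and Dhx9 KO (right); grey circles have a peak in all 4 libraries compared, red triangles were lost and green triangles gained. Lost members gather at short lengths and low repeat content, with medians of 1800 bp and 17.6% in Uhrf1 KO.

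Merged length includes the knockout peaks, so it is not independent of the loss. By the mean length called in the wild-type libraries, an ordering chosen after the data were seen, 41.8% of members in the shortest quintile of regions (1700 bp or less) were lost in Uhrf1 KO, against 26.4% of all regions in that quintile. In the longer quintiles members were lost less often than all regions, at 16.2% against 31.0%, 14.6% against 29.7%, 8.20% against 21.5% and 2.33% against 8.34%. With Uhrf1 KO replicate 2 alone the shortest quintile gave 46.0% against 29.5%. By merged length the shortest and longest quintiles of members gave 53.5% and 1.61% lost.

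Loss also followed base composition. From the lowest to the highest quintile of GC content, 6.49%, 19.3%, 31.8%, 43.2% and 47.9% of members were lost in Uhrf1 KO, against 5.22%, 17.3%, 22.5%, 28.0% and 43.8% of all regions. In Dhx9 KO the lowest and highest quintiles gave 0.649% and 16.7% of members and 2.74% and 11.1% of all regions. In the quintile with the highest wild-type enrichment, 11.4% of members and 6.04% of all regions were lost in Uhrf1 KO, and in the lowest 37.0% of members and 49.4% of all regions. The part of GC content, length and the background library in these shares was not tested.

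**Figure D4:**
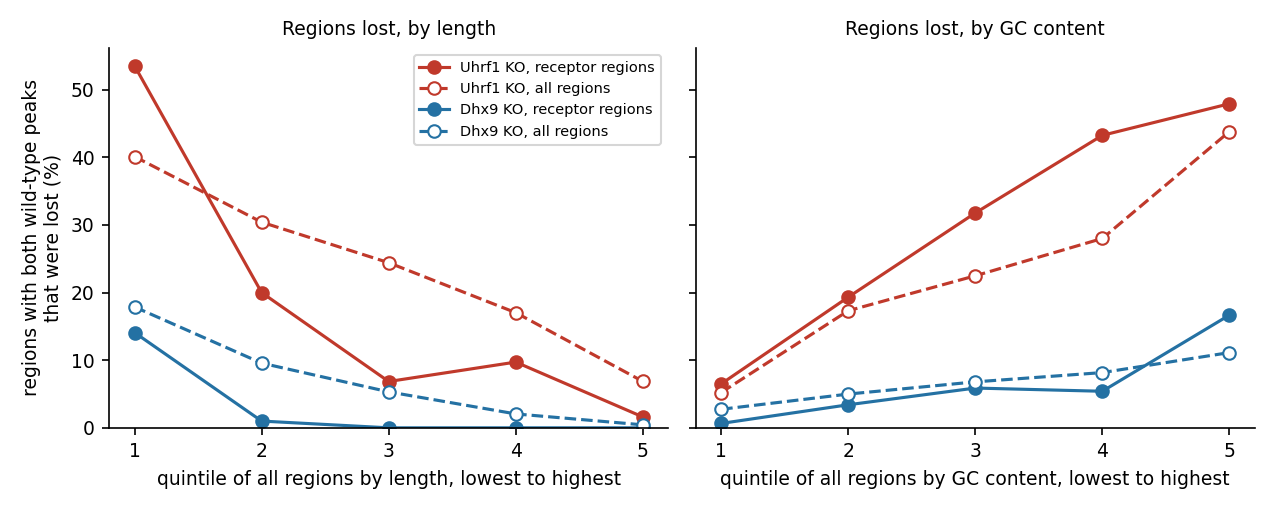
Percent of regions with a peak in both wild-type libraries that were lost, by quintile of merged length (left) and of GC content (right), for members (filled, solid) and all regions (open, dashed). In Uhrf1 KO the member share falls from 53.5% to 1.61% with length and runs from 6.49% to 47.9% with GC content.

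By place, Uhrf1 KO lost 61 of the 208 coding exon members that both wild-type libraries had called (29.3%) and 44 of 219 flank members (20.1%). With replicate 2 as the only Uhrf1 KO library the shares were 32.2% and 22.8%. In Dhx9 KO the counts were 12 (5.77%) and 8 (3.65%). The shares were set side by side without a test, and coding exon members were also the shorter, with a median of 2200 bp against 2800 bp.

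The lost members with the highest wild-type enrichment were led by an intronic region of Olfr687 (chr7:105255201-105256600), with log2 folds of 2.66 and 3.11 and 51 and 37 reads in wild-type. Dhx9 KO replicate 2 also had a peak there, at 1.53. This region was 91.5% repeat-masked, unlike most lost members. At Olfr410 (chr11:74333401-74335200) the wild-type folds were 2.41 and 2.61 with 57 and 63 reads, and both Dhx9 KO libraries had the peak, at 1.54 and 2.04.

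At Olfr655, in the class I cluster (chr7:104596201-104597200), the wild-type folds were 2.26 and 2.17 with 60 and 58 reads, and Dhx9 KO replicate 1 had the peak at 2.07. The region beside Olfr1491 (chr19:13706601-13707800) had 2.48 and 2.14 in wild-type and 2.297 in Dhx9 KO replicate 1. Olfr684 (chr7:105156801-105157800), with 2.11 and 2.14 and 54 and 53 reads in wild-type, had no peak in any knockout library. The reads behind these lost peaks were few, at 37 to 63 per wild-type library.

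Besides Olfr684, the Dhx9 KO lost members with the highest wild-type folds were at Olfr1490, with 2.14 and 2.09, beside Olfr1462, with 2.32 and 1.98, beside Olfr237-ps1, with 1.98 and 1.83, and at Olfr705, with 1.77 and 1.92. Of these, Uhrf1 KO replicate 2 had a peak beside Olfr1462, at 1.43, and no other knockout library had any.

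Across all lost and gained members the reads overlapped widely. Members lost in Uhrf1 KO had 37 to 286 reads in a wild-type library, with medians of 71 and 65, and members gained in Dhx9 KO had 38 to 209 in a Dhx9 KO library, with medians of 71.5 and 75. Members gained in Uhrf1 KO had medians of 36 and 63 reads. In Uhrf1 KO the gained members were led by a 600 bp region over the coding exon of Olfr724 (chr14:49960401-49961000), with log2 folds of 1.90 and 2.27 and 18 and 49 reads. A neighbouring region, also beside Olfr724, had 1.96 and 1.66, and both Dhx9 KO libraries had a peak there too. The others lay beside Olfr1458 (2.23 and 1.89), Olfr1387 (1.76 and 1.89) and Olfr922 (1.82 and 1.62).

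In Dhx9 KO the leading gained member was the coding exon of Olfr239 (chr17:33199201-33199800), with log2 folds of 2.52 and 2.66 and 40 and 44 reads. Olfr272 (chr4:52910801-52914000) had 1.51 and 2.36 with 142 and 114 reads, the most of the 5. At both, neither wild-type nor Uhrf1 KO libraries had a peak. The others were beside Olfr868 (1.83 and 1.67), in an intron of Olfr183 (1.54 and 1.42, also called in both Uhrf1 KO libraries) and beside Olfr480 (1.71 and 1.35).

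Read counts were compared first where every library compared had called at least 80% of a region. Few members met this. Of 1387 regions tested for Uhrf1 KO 8 were members, and of 2708 tested for Dhx9 KO 27 were members. By edgeR's quasi-likelihood test at a Benjamini-Hochberg false discovery rate of 0.05, no member was called in either comparison. Over all regions tested, 86 (6.2%) were lower and 21 (1.51%) higher in Uhrf1 KO, and 8 (0.295%) were lower and 1 (0.0369%) higher in Dhx9 KO. At an unadjusted p under 0.05, 0 members were called in Uhrf1 KO, beside 224 lower and 131 higher of all 1387 regions, and 3, all lower, in Dhx9 KO, beside 193 lower and 134 higher of all 2708. DESeq2 called 0 members in both comparisons. The median log2 change of members was -0.04 in Uhrf1 KO and 0.03 in Dhx9 KO, against -0.04 and 0.01 for all regions tested. With all regions called in every library compared, at any share, 0 members passed in either comparison. At an unadjusted p under 0.05 in edgeR, 48 of 362 members were lower and 4 higher in Dhx9 KO, beside 3860 and 1335 of all 51878. In Uhrf1 KO 17 of 232 were lower and 5 higher, beside 2138 and 1088 of all 36091. Member medians there were -0.099 in Dhx9 KO and -0.125 in Uhrf1 KO, against -0.015 and -0.069 for all those regions.

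The members with the smallest p in each direction were as follows. In Uhrf1 KO a 400 bp region beside Olfr624 had a log2 change of -0.37 (adjusted p = 0.321 in edgeR), and one beside Olfr116 had -0.35 (adjusted p = 0.392). A 5000 bp region beside Olfr620 (chr7:103615001-103620000), in the class I cluster, had 0.19 (adjusted p = 0.321) with 527 and 460 wild-type reads against 307 and 770 Uhrf1 KO reads. A 600 bp region beside Olfr609 had 0.25 (adjusted p = 0.565).

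Per 1000000 reads in peaks, the region beside Olfr620 had 27.5 and 25.7 in wild-type against 52.4 and 49.3 in Uhrf1 KO, and that beside Olfr609 had 2.67 and 2.35 against 4.44 and 4.67. Both Uhrf1 KO libraries lay above wild-type on that scale, and neither region passed the test. Without Uhrf1 KO replicate 1, in a fit with a lone knockout library assumed to vary like wild-type, the regions beside Olfr620 and Olfr609 had 0.62 and 0.72 and were called, the value beside Olfr116 turned to 0.09, and 5 members were higher and 2 lower among 20 tested, beside 1070 higher and 819 lower of all 5084 regions. Without Uhrf1 KO replicate 2, 1 of 9 members was lower, beside 165 of all 1558 regions.

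In Dhx9 KO the region beside Olfr1447 (chr19:12904001-12907000) had a log2 change of -0.46 (adjusted p = 0.316 in edgeR), with 177 and 156 reads in wild-type and 91 and 109 in Dhx9 KO. The coding exon of Olfr656 in the class I cluster had -0.52 (adjusted p = 0.329), with 64 and 61 reads against 53 and 44. The coding exon of Olfr160 had 0.42 (adjusted p = 0.426), with 46 and 54 against 71 and 62, and a region beside Olfr122 had 0.38 (adjusted p = 0.509). None of the 4 passed the test. Without Dhx9 KO replicate 1, 2 of 46 members were higher, beside 208 of all 4709 regions. Without replicate 2, 1 of 39 members was higher and 1 lower, beside 132 and 281 of all 5668 regions.

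Other genes of the olfactory system gave values beside those of the receptors. Of 12 genes of olfactory signalling on the chromosomes used, a list that holds the transduction genes, receptor transport proteins and Omp, all had a merged region within 5 kb, and their windows were covered more than the receptors', at 38.2% and 36.2% in wild-type. In Uhrf1 KO they had 6.48% and 22.9%, and in Dhx9 KO 35.4% and 29.6%. Gnal, the olfactory G protein subunit, had 24.9% and 30.5% in wild-type against 4.65% and 14.3% in Uhrf1 KO. Ano2, a calcium-activated chloride channel, had 48.5% and 44.6% against 10.6% and 35.7%. Cngb1, a subunit of the cyclic nucleotide-gated channel, had 75.5% and 72.1% against 7.43% and 35.3%. In all 3 genes both Uhrf1 KO libraries lay below wild-type. So they did at Adcy3, Gng13, Omp, Reep1 and Ric8b. At the other genes of the list replicate 1 lay below wild-type, but replicate 2 did not. Replicate 2 was at 26.8% at Cnga4 (24.0% and 23.1% in wild-type) and 100% at Rtp2 (72.5% and 68.6%). It was at 18.9% at Stoml3 (6.24% and 11.8%), and at Rtp1 it lay between the wild-type libraries.

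The 5 regulators of receptor choice on these chromosomes were covered little, at 8.21% and 5.10% in wild-type, and none had a peak over its start in any library. By the merged regions that reach within 5 kb, Emx2 and Ebf1, both transcription factors, had the highest wild-type folds among them, at 1.85 and 0.99. In wild-type replicate 1 0% of the Emx2 window was called, so its peak in that region lies outside the window. Of the 15 globin and Trim genes that lie among the class I receptors, 9 had a merged region, and their windows were covered at 4.17% and 2.91% in wild-type. The highest wild-type fold there was 4.14, in a merged region beside Trim5, a restriction factor family gene, followed by Trim6 at 2.56 and Trim30d at 1.87. Little of the first 2 windows was called in wild-type, with 1.14% and 1.14% at Trim5 and 0% and 0.830% at Trim6.

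Vomeronasal receptors, the pheromone receptors of the second olfactory organ, were covered less than the olfactory receptors in wild-type. The Vmn1r windows had 6.36% and 6.08% in wild-type, 8.13% and 5.82% in Uhrf1 KO and 7.51% and 10.3% in Dhx9 KO. The Vmn2r windows had 6.98% and 7.11%, 11.5% and 8.48%, and 8.60% and 11.9%. In Vmn2r windows both Uhrf1 KO libraries lay above wild-type, whereas in olfactory receptor windows both lay below. Of regions with a peak in both wild-type libraries, Uhrf1 KO lost 9 of 91 at Vmn1r genes (9.89%) and 17 of 163 at Vmn2r genes (10.4%). The share was 24.3% for olfactory receptor members and 23.4% for all regions. Taar genes, a small family of amine receptors, lost 2 of 10, and Ms4a genes 7 of 13. These shares were not tested against each other.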

How the data were processed

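H3K9me3 ChIP-seq peak lists of 6 libraries and the gene annotation deposited with the series were used. The members and gene lists were chosen with earlier results of these data known. Per the study's methods, the authors aligned single-end 150-base reads to mm10 with Bowtie2 and subsampled aligned reads to about the same number per library. Peaks were called per library with epic2, a SICER implementation, keeping duplicates, with wild-type input as background. That does not match the Uhrf1 KO lists, whose background counts differ from those of the other lists at most identical peaks. Peak starts in the lists are multiples of 200 bp. The submitters' processing notes list Bowtie2 2.3.4.3, SICER 0.0.51, Picard 2.8.0 and deepTools 3.0.2. The deposited lists give whole-number counts of ChIP and background reads, a p-value and false discovery rate, a score, and the log2 fold over background for each peak.

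Peaks were merged over at least 1 shared base. Receptor windows are transcripts with 5 kb on each side, and known bases, GC content and soft-masked repeats came from the GRCm38.p6 reference, whose start codons read ATG at 938 of 939 annotated receptor start codons. Read counts were tested with edgeR 4.0.16 in R 4.3.3 (quasi-likelihood test, TMM, called length as offset) on regions with a total of at least 10 reads, called over at least 80% of their length in all 4 libraries compared, with Benjamini-Hochberg adjustment over all of them; DESeq2 1.42.0 was an alternative. On simulated counts with 200 regions changed 2-fold, the step recovered 167 in the Uhrf1 KO setting (1387 regions) and 172 in the Dhx9 KO setting (2708 regions). It made 7 and 2 false calls. The simulation gave every region and library the same dispersion, whereas the spread between real libraries differed by genotype. The recovery therefore does not show how many true changes the test finds in these data. Covered shares were compared by exact permutation in scipy 1.17.1. ChIP reads in peaks ranged from 5856789 to 19130406 per library. PCR reads are not independent molecules, so counts carry more error than their number shows. The labels do not tie libraries to separate cultures, although the study's methods call them biological replicates, so p-values measure only the spread between these libraries. Read counts of same-genotype libraries were further apart than counting error allows, with a chi-square of 4.13 to 21.0 per degree of freedom.

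Regions and genes named are the 5 members of at least 2 kb with the highest lower wild-type log2 fold, the 5 longest, the 2 with the smallest p in each direction of each count test, the 5 lost and 5 gained per knockout with the highest lower fold, 5 receptors with a start in a peak of all 6 libraries, the 5 largest clusters and up to 3 genes per list by wild-type fold. The stem cell genes, the clusters with the highest and lowest coverage and the sequences shown were picked by further rules: all of the fixed list, the extremes, and the leading regions of each kind.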

Additional observations from a re-analysis of the deposited data

Results flagged for a closer look

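The covered share of the receptor windows moved in opposite directions in the knockouts. Both Uhrf1 KO libraries lay below both wild-type libraries, with a mean difference of -2.48 percentage points, and both Dhx9 KO libraries lay above, with 2.66 points. Over the genome the share was 17.3% and 16.7% in wild-type, 8.48% and 14.2% in Uhrf1 KO and 17.1% and 16.6% in Dhx9 KO. The ratio of window to genome share was 0.809 and 0.642 in Uhrf1 KO and 0.739 and 0.820 in Dhx9 KO. All lay above the 0.611 and 0.622 of wild-type, and for Uhrf1 KO this direction turned under some alternatives. The median log2 fold of called members was 1.17 and 1.22 in Dhx9 KO, below the 1.45 and 1.48 of wild-type, and 1.71 and 1.62 in Uhrf1 KO. The difference between the knockouts was not tested. Uhrf1 KO replicate 1 has the fewest reads in peaks and the Uhrf1 KO lists use another background; their part in the result was not tested.

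The same pattern was seen in 3 of the 26 clusters of 5 or more genes, again untested, and these are given because they show it. Taken singly, both Uhrf1 KO libraries lay below wild-type in 10 of the 26, and both Dhx9 KO libraries lay above in 16. In the cluster of 13 genes on chr4 the mean difference was -21.7 points in Uhrf1 KO and 21.4 in Dhx9 KO. The rest of chr4 was covered at 16.9% and 16.5% in wild-type, 7.73% and 13.1% in Uhrf1 KO and 29.3% and 15.0% in Dhx9 KO. In the cluster of 19 genes on chr7 the difference was -16.0 and 13.2, with the rest of chr7 at 22.2% and 21.2%, 9.12% and 16.2%, and 20.9% and 19.5%. In the cluster of 10 genes on chr10 it was -7.40 and 3.72, with the rest of chr10 at 13.6% and 13.3%, 8.17% and 12.9%, and 14.1% and 15.2%. The part of these chromosome-wide values in the cluster differences was not tested.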

How the results depend on the processing

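Counts of members depended on the window and on the peaks admitted, and the share over all regions is given after each member share. With no flank, 65 members were lost (28.3%, 23.4%) and 8 gained (7.21%, 8.02%) in Uhrf1 KO and 13 lost (5.65%, 6.77%) and 17 gained (7.56%, 8.73%) in Dhx9 KO. With a flank of 20 kb the counts were 174 (21.0%, 23.4%), 53 (8.98%, 8.02%), 38 (4.58%, 6.77%) and 68 (8.23%, 8.73%). Peaks at a false discovery rate of 1e-10 or below gave 13 gained in Uhrf1 KO (7.98%, 11.96%) and 38 lost (12.5%, 11.1%) and 15 gained (6.36%, 7.48%) in Dhx9 KO. Peaks with a log2 fold of at least 1 gave 47 lost (14.2%, 14.9%) and 21 gained (8.33%, 10.4%) in Dhx9 KO, and an equal number of peaks per library gave 35 (9.92%, 11.8%) and 23 (7.64%, 11.2%). Asking peaks to cover at least 50% of a region gave 47 gained in Uhrf1 KO (30.5%, 25.05%) and 73 in Dhx9 KO (23.7%, 20.0%). The cause was not tested. Leaving out a library in turn gave 121 to 205 lost and 34 to 70 gained in Uhrf1 KO and 51 to 57 lost and 55 to 120 gained in Dhx9 KO.

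The covered share kept its direction under every alternative run, with -3.62 to -1.34 points in Uhrf1 KO and 2.15 to 3.18 in Dhx9 KO when a library was left out. The relative coverage of Uhrf1 KO turned to -0.0976 with peaks of a log2 fold of at least 1, to -0.0929 with equal peak numbers and to -0.0484 with no flank, and was 0.0257 to 0.193 with a library left out. That of Dhx9 KO was 0.123 to 0.204.

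No member passed the count test as first fitted. In Uhrf1 KO 2 of 71 were lower with regions covered over at least 50%, beside 424 of all 11236, and 1 of 18 with the peaks of the 4 libraries merged, beside 158 of all 2284. Leaving out a library gave 0 to 2 lower and 0 to 5 higher in Uhrf1 KO and 0 to 1 lower and 0 to 2 higher in Dhx9 KO. The region beside Olfr116 turned from -0.35 to 0.0852 without Uhrf1 KO replicate 1, with -0.46 to 0.09 over the libraries left out. Over all regions tested, DESeq2 called 43 lower and 13 higher in Uhrf1 KO, against 86 and 21 by edgeR, and 15 and 0 in Dhx9 KO, against 8 and 1. Equal library sizes left 0 and 0 in Uhrf1 KO, with 2 and 0 at an unadjusted p under 0.05, and no length offset gave 92 and 71. The replicate numbers are shared in the labels, but nothing ties them to a culture or day, and the deviations of same-numbered libraries correlated at 0.09 with Uhrf1 KO and -0.07 with Dhx9 KO. A fit with the replicate block called 0 members in each direction, and 66 lower and 12 higher of all regions in Uhrf1 KO and 13 and 2 in Dhx9 KO. Lost members had medians of 52 to 71 reads per wild-type library, and the part of depth in their loss was not tested.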
